A study of Mus musculus with 10 samples.

Results

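The genes described here encode the L-type and T-type voltage-gated calcium channels of the heart. They are 10 genes, taken by symbol from count tables of 48397 gene symbols: the L-type pore genes Cacna1c and Cacna1d, the T-type pore genes Cacna1g and Cacna1h, the beta subunit genes Cacnb1, Cacnb2 and Cacnb3, and the alpha2delta subunit genes Cacna2d1, Cacna2d2 and Cacna2d3. All 10 were found in every table and all 10 passed the filter on low counts, with 62 to 7374 counts per library. The tables come from bulk RNA sequencing of left atrial tissue, from wild-type mice that the design text describes as male C57BL/6J animals operated at 2 months of age. Of the 10 libraries, 5 came from sham-operated mice and 5 from mice with transverse aortic constriction (TAC), a narrowing of the aorta that raises the pressure the heart pumps against, all taken 2 weeks after surgery. The design text calls the tissue the left appendage and the sample labels call it the left atrium. The sources do not say that each library is a separate animal, so p-values measure the spread between these libraries, part of which may be technical.

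Voltage-gated calcium channels open when the membrane depolarises and let calcium into the cell. In cardiomyocytes the L-type current carries the plateau of the action potential and triggers calcium release from the sarcoplasmic reticulum, whereas the T-type current opens at more negative voltages and is known from pacemaker tissue. An L-type channel is a pore-forming alpha1 subunit with an intracellular beta subunit, which helps bring the pore to the surface and sets its gating, and an extracellular alpha2delta subunit, which raises its surface level.

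The libraries held between 17117306 and 43956384 counts, and sham replicates 1 and 2 were the shallowest, at 17117306 and 17154462. Levels are given as CPM, a gene's count relative to its library's total after scaling by TMM, and changes are log2 fold changes of TAC over sham from edgeR, with a standard error (SE) and a Benjamini-Hochberg adjusted p over all 15175 genes tested. A gene was called at an adjusted p under 0.05. Of all tested genes 56.8% were called (28.9% higher and 27.9% lower), and the 5 TAC libraries did not overlap the 5 sham libraries in CPM for 41.7%. The atrial markers Myl7, Myl4, Sln and Nppa each had a mean of at least 1204 CPM in both groups, although of 8 atrial markers 5 were called lower (Myl7, Myl4, Sln, Stard10 and Kcna5) and 1 higher (Nppa), with a sum in TAC 0.679 times that in sham. Changes are relative to TMM scaling: the median log2 fold change over tested genes was 0.01 with it and 0.37 when library size alone set the scale.

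Among the calcium channel genes 3 were called higher in TAC (Cacnb1, Cacnb3 and Cacna2d2) and 4 lower (Cacna1d, Cacna1h, Cacnb2 and Cacna2d3), or 7 of 10 against a background of 56.8%. Cacna1c, Cacna1g and Cacna2d1 were not called. The groups did not overlap in CPM for 4 of the 10, Cacnb3 upward and Cacna1h, Cacnb2 and Cacna2d3 downward, against 41.7% of all tested genes (21.5% upward and 20.2% downward). With scaling by library size alone, 4 were called higher (the same 3 and Cacna2d1) and 3 lower (all but Cacna1d), against backgrounds of 51% and 12.7% (63.7% in either direction). The median log2 fold change of the 10 was -0.25, beside 0.01 for all genes tested, with a range from -2.22 to 2.37. The beta class and the alpha2delta class each held members called in both directions. In bulk tissue, fewer cells of a type and less RNA per cell cannot be told apart.

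**Figure D1:**
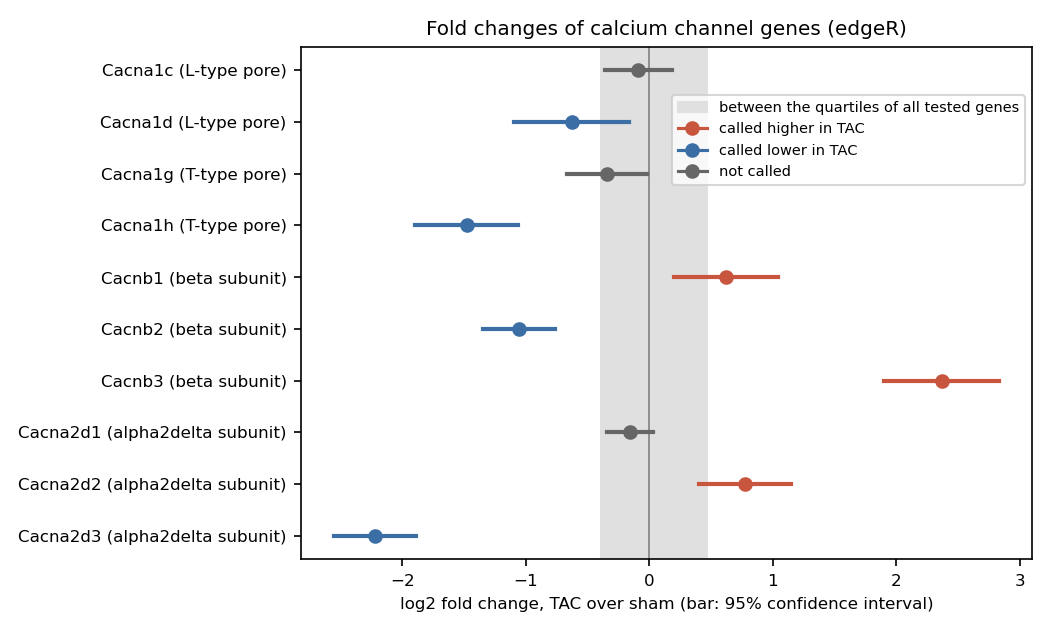
Log2 fold changes (x axis, TAC over sham) of the 10 calcium channel genes (y axis), with bars for the 95% confidence interval from edgeR and grey shading between the quartiles of all 15175 tested genes (-0.395 and 0.468). Cacnb3 at 2.37 and Cacna2d3 at -2.22 lie at the ends, and the intervals of Cacna1c and Cacna2d1 include 0.

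**Figure D2:**
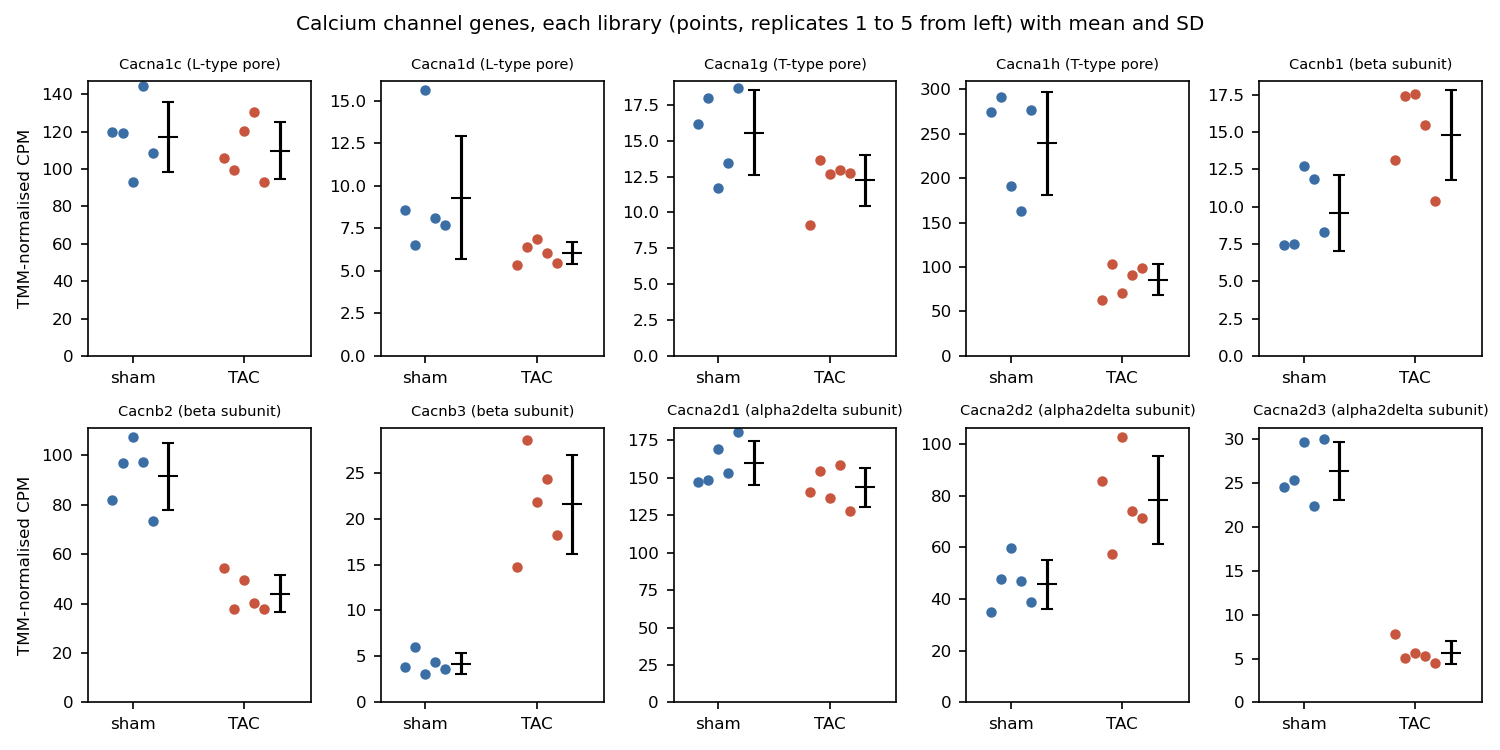
TMM-normalised CPM (y axis, each panel from 0 with its own scale) of the 10 genes in the 5 sham and 5 TAC libraries, 1 point per library, with the mean and SD beside each group. The groups do not overlap for Cacna1h, Cacnb2, Cacnb3 and Cacna2d3.

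Cacna1c, at chromosome 6, 118587240 to 119196418 (GRCm38, minus strand), encodes Cav1.2, the main pore of the cardiac L-type channel. Its CPM in sham replicates 1 to 5 was 119.8, 119.4, 93.0, 144.2 and 108.5, and in TAC replicates 1 to 5 it was 106.1, 99.7, 120.3, 130.3 and 92.9. The groups overlapped over nearly their whole range, with sham replicate 4 highest and TAC replicate 5 lowest. The log2 fold change was -0.09 (SE 0.12, adjusted p = 0.55), and its 95% interval of -0.36 to 0.18 spans 0.779 to 1.13 times the sham level. Scaled by library size alone, the value was 0.27 (adjusted p = 0.10), on the other side of 0.

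Cacna1d, at chromosome 14, 30039939 to 30491455 (minus strand), encodes Cav1.3, which opens at more negative voltages than Cav1.2 and is known from the sinoatrial node and the atria. Its CPM was 8.57, 6.52, 15.6, 8.09 and 7.69 in sham replicates 1 to 5, and 5.34, 6.38, 6.90, 6.08 and 5.49 in TAC replicates 1 to 5. Sham replicate 3 stood far above the other 9 libraries, and 4 of 5 TAC libraries lay below every sham library. Cacna1d fell by 0.63 on the log2 scale (SE 0.21, adjusted p = 0.025). Without sham replicate 3 the log2 fold change was -0.36 (adjusted p = 0.034). The call was lost without TAC replicate 1 (adjusted p = 0.055), without TAC replicate 5 (adjusted p = 0.058) and when scaled by library size alone (-0.26, adjusted p = 0.30). Of its merged exonic bases 4.67% are shared with the opposite-strand gene Chdh, which had 5 to 58 counts per library against 102 to 514 for Cacna1d.

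Markers of nodal cells (Hcn4, Isl1, Shox2, Tbx3, Vsnl1 and Rgs6) summed to 39.7 to 62.3 CPM in sham, with the highest value in sham replicate 3, and to 52.0 to 85.7 CPM in TAC. Most of the sum was Rgs6, with a mean of 34.6 of 47.3 CPM in sham and 62.8 of 70.0 CPM in TAC. Of the 5 tested, Shox2 and Rgs6 were called higher and Tbx3 and Vsnl1 lower. Hcn4 was not called, with a mean of 0.87 CPM in sham and 0.42 in TAC (adjusted p = 0.057 from edgeR). Isl1 had 3 counts in all libraries together. The part of these markers in the Cacna1d result was not tested. The count ratio of Cacna1d to Cacna1c, which needs no library scaling, was 0.0548 to 0.168 in sham and 0.0467 to 0.0641 in TAC. The log2 difference of -0.47 did not pass the test (exact two-sided permutation p = 0.087, adjusted p = 0.087 over 6 ratios).

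Cacna1h, at chromosome 17, 25374285 to 25433783 (minus strand), encodes the T-type pore Cav3.2. It stood at 274.4, 291.0, 191.7, 163.2 and 276.7 CPM in sham replicates 1 to 5, and at 63.5, 103.9, 70.8, 91.6 and 99.2 CPM in TAC replicates 1 to 5. Every TAC library lay below every sham library, and sham replicates 3 and 4 were well under the other sham libraries. Cacna1h fell by 1.48 on the log2 scale (SE 0.19, adjusted p = 6.7e-05), with a 95% interval from -1.90 to -1.06. It shares 1.62% of its merged exonic bases with the opposite-strand gene Tpsg1, which had 0 to 16 counts per library.

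Cacna1g, at chromosome 11, 94408391 to 94474198 (minus strand), encodes the T-type pore Cav3.1. Its CPM was 16.1, 18.0, 11.7, 13.4 and 18.7 in sham replicates 1 to 5, and 9.11, 13.7, 12.7, 13.0 and 12.7 in TAC replicates 1 to 5. Of the TAC libraries, replicates 2 to 5 sat close together inside the sham range and replicate 1 was lowest. The gene was not called (log2 fold change -0.34, SE 0.15, adjusted p = 0.068), and its 95% interval ran from -0.67 to -0.02. Without sham replicate 3 it passed the threshold (-0.44, adjusted p = 0.021), and scaled by library size alone it had a value of 0.02 (adjusted p = 0.90).

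The count ratio of Cacna1h to Cacna1g was 12.1 to 17.0 in sham and 5.58 to 7.78 in TAC, without overlap. That difference of -1.13 on the log2 scale, a 2.19-fold lower ratio, had an exact two-sided permutation p of 0.0079, the smallest that 5 against 5 libraries allow (adjusted p = 0.0095 over 6 ratios). Cacna1h was thus lower in TAC relative to Cacna1g in every library.

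The beta subunit genes moved in opposite directions. Cacnb2, at chromosome 2, 14603088 to 14987908 (plus strand), encodes the main beta subunit of heart muscle, and Cacnb3, at chromosome 15, 98630840 to 98644529 (plus strand), encodes a beta subunit known from brain and smooth muscle. Because the results on balance turn on these genes, the RefSeq sequences around their start sites (GRCm38.p6, 250 bases before to 50 after) are shown. Capitals mark matches to GCGTGGG, a core bound by EGR factors, or to TGACGT, the core of the cyclic AMP response element, on either strand.
Cacnb2 first start, chr2:14604056-14604355, plus strand: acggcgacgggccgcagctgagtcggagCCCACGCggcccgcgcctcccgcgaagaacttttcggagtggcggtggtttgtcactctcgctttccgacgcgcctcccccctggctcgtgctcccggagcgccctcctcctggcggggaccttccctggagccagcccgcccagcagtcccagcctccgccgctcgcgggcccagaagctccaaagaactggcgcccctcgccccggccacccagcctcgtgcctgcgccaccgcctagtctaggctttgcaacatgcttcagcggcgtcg
Cacnb2 second start, chr2:14823842-14824141, plus strand: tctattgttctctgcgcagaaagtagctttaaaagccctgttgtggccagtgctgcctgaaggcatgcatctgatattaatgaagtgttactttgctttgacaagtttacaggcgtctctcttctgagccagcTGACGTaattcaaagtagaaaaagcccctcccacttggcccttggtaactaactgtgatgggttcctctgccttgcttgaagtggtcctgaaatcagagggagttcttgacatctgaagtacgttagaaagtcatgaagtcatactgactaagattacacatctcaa
Cacnb3 first start, chr15:98632078-98632377, plus strand: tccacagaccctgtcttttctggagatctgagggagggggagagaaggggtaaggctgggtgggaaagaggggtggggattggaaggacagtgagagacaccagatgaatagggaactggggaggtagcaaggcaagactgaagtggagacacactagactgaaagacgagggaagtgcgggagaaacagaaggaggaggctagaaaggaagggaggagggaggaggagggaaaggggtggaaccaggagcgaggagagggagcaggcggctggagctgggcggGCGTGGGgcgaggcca
Cacnb3 second start, chr15:98634517-98634816, plus strand: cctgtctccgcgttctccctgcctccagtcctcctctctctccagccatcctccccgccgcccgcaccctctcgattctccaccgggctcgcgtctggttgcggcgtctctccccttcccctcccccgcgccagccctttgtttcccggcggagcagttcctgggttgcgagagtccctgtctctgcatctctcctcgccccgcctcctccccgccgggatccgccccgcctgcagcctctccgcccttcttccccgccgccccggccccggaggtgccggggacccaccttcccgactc

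The EGR core lies on the opposite strand 222 bases before the first Cacnb2 start and on the gene's own strand 34 bases after the first Cacnb3 start, and the cyclic AMP core lies 117 bases before the second Cacnb2 start. The starts of each gene differ in base composition: the first and second Cacnb2 windows hold 71.7% and 44.0% G and C with 35 and 4 CpG pairs, and the Cacnb3 windows 59.7% and 72.0% with 7 and 29. RefSeq gave 14 start windows for 8 of the 10 genes, with Cacna1g and Cacna1h unmatched. On either strand, 3 of the 14 held GCGTGGG (5.04% of all 32851 windows do), 1 held TGACGT (7.51%), 1 held TATAAA (13.6%) and 0 held CCGGAAG, a core bound by ETS factors (8.86%). The windows of the calcium channel genes were richer in G and C than all windows (median 71.8% against 52.7%, and 31.5 against 7 CpG pairs), so the shares over all windows are not matched for composition. A match is a run of letters and not a measured binding site, and the counts are per gene, so they do not tell which start was used.

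Cacnb2 stood at 82.0, 97.1, 107.5, 97.4 and 73.6 CPM in sham replicates 1 to 5, and at 54.5, 37.9, 49.7, 40.1 and 37.9 CPM in TAC replicates 1 to 5. The highest TAC library, replicate 1, lay below the lowest sham library, replicate 5. Cacnb2 fell by 1.06 on the log2 scale (SE 0.13, adjusted p = 4.8e-05), to 0.481 times the sham level. Of its merged exonic bases 7.32% are shared with the opposite-strand genes Gm10848, Gm10849 and Gm13269, which had at most 1 count in any library.

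Cacnb3 stood at 3.85, 6.01, 3.10, 4.43 and 3.68 CPM in sham replicates 1 to 5 (62 to 172 counts), and at 14.7, 28.6, 21.8, 24.3 and 18.3 CPM in TAC replicates 1 to 5 (635 to 1147 counts). Every TAC library was far above every sham library. Cacnb3 rose by 2.37 on the log2 scale (SE 0.21, adjusted p = 5.6e-06), or 5.16-fold with a 95% interval from 3.74 to 7.11. Of all tested genes, 95.2% had a smaller absolute log2 fold change.

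Cacnb1, at chromosome 11, 98001508 to 98023034 (minus strand), encodes the beta subunit of the skeletal muscle channel. Its CPM was 7.45, 7.48, 12.7, 11.9 and 8.33 in sham replicates 1 to 5, and 13.2, 17.4, 17.6, 15.5 and 10.4 in TAC replicates 1 to 5. The groups overlapped at TAC replicate 5, and the shallow sham replicates 1 and 2 were the lowest of the 10. Cacnb1 rose by 0.62 on the log2 scale (SE 0.19, adjusted p = 0.016). Without those 2 shallow libraries the value was 0.42 and was not called (adjusted p = 0.11).

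Within each library, the balance of the beta genes was also compared as count ratios. The ratio of Cacnb3 to Cacnb2 was 0.0290 to 0.0622 in sham and 0.270 to 0.754 in TAC, a 10.6-fold higher ratio (log2 difference 3.41, exact two-sided permutation p = 0.0079, adjusted p = 0.0095 over 6 ratios). The ratio of Cacnb1 to Cacnb2 was 0.0773 to 0.122 in sham and 0.242 to 0.460 in TAC, a 3.25-fold higher ratio with the same p-values. Neither ratio overlapped between groups. Among TAC libraries, replicate 2 had the highest and replicate 1 the lowest value of both.

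**Figure D3:**
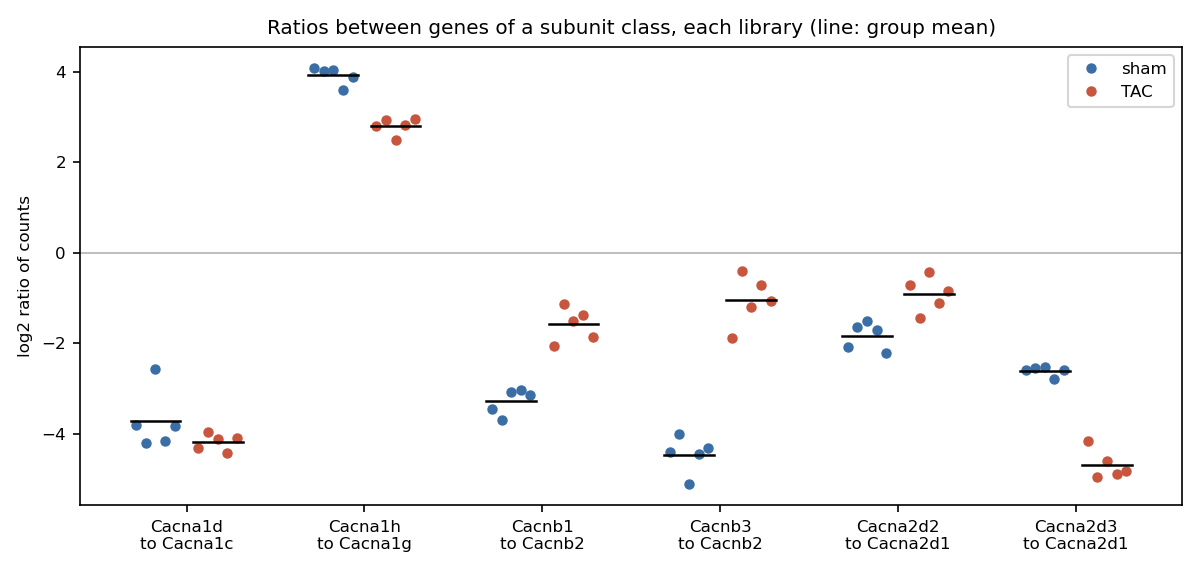
Log2 ratios of counts (y axis) for 6 pairs of genes within a subunit class (x axis), 1 point per library (sham blue, TAC red) and a line at each group mean. The groups are separate for 5 of the 6 ratios and overlap for Cacna1d to Cacna1c, where sham replicate 3 stands apart. Each of the 5 holds a gene that was called on its own. The share of separate ratios over other gene pairs was not computed, and 41.7% of single tested genes were separate.

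Cacna2d1, at chromosome 5, 15934691 to 16374511 (plus strand), encodes alpha2delta-1, the main alpha2delta subunit of heart muscle and a protein that gabapentin binds. Its CPM was 147.4, 148.9, 169.3, 153.6 and 180.7 in sham replicates 1 to 5, and 140.4, 154.8, 136.9, 158.6 and 127.7 in TAC replicates 1 to 5. The groups overlapped, with 3 of 5 TAC libraries below every sham library. The gene was not called (log2 fold change -0.16, SE 0.09, adjusted p = 0.14), with a 95% interval from -0.34 to 0.03. Scaled by library size alone, the value changed sign to 0.21 and was called (adjusted p = 0.033).

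Cacna2d2, at chromosome 9, 107399612 to 107529343 (plus strand), encodes alpha2delta-2, best known from the cerebellum. Its CPM was 35.1, 47.6, 59.8, 46.8 and 38.9 in sham replicates 1 to 5, and 85.6, 57.3, 102.8, 74.1 and 71.3 in TAC replicates 1 to 5. Of the TAC libraries only replicate 2 lay within the sham range, just under sham replicate 3. Cacna2d2 rose by 0.77 on the log2 scale (SE 0.17, adjusted p = 0.0023), or 1.71-fold with a 95% interval from 1.32 to 2.22.

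Cacna2d3, at chromosome 14, 28904943 to 29721864 (minus strand), encodes alpha2delta-3, known mainly from the nervous system. It stood at 24.5, 25.4, 29.7, 22.3 and 29.98 CPM in sham replicates 1 to 5, and at 7.82, 5.01, 5.65, 5.34 and 4.49 CPM in TAC replicates 1 to 5. Every TAC library was far below every sham library, and TAC replicate 1 was the highest of its group. Cacna2d3 fell by 2.22 on the log2 scale (SE 0.15, adjusted p = 1.2e-06), to 0.215 times the sham level with a 95% interval from 0.171 to 0.271.

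The alpha2delta ratios were separate between groups as well. The count ratio of Cacna2d3 to Cacna2d1 was 0.146 to 0.175 in sham and 0.0324 to 0.0558 in TAC, a 4.23-fold lower ratio. The ratio of Cacna2d2 to Cacna2d1 was 0.215 to 0.354 in sham and 0.370 to 0.751 in TAC, a 1.90-fold higher ratio. Both differences had an exact two-sided permutation p of 0.0079 (adjusted p = 0.0095 over 6 ratios).

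Levels of different genes were compared as CPM per kilobase of merged exons from GENCODE M21, a length that counts every annotated exon whether used or not. In sham Cacna1h led with 24.5 ± 5.92 CPM per kb (SD, n = 5), followed by Cacna2d1 with 12.9 ± 1.17, and the library ranges of both stood apart from the next gene. Cacnb2 (6.92 ± 1.02), Cacna2d2 (5.74 ± 1.2) and Cacna1c (5.52 ± 0.883) came next, each overlapping its neighbour, and Cacna1c was clear of the gene below it. Cacna2d3 (3.02 ± 0.383), Cacnb1 (2.11 ± 0.559), Cacna1g (1.54 ± 0.293), Cacnb3 (1.05 ± 0.277) and Cacna1d (0.737 ± 0.286) followed, each overlapping the next.

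In TAC the order began with Cacna2d1 (11.6 ± 1.03 CPM per kb), Cacna2d2 (9.84 ± 2.14) and Cacna1h (8.79 ± 1.82), each overlapping the next. Cacnb3 came after them with 5.37 ± 1.34, overlapping both Cacna1h above it and Cacna1c (5.18 ± 0.722) below it. Cacnb2 (3.33 ± 0.577) and Cacnb1 (3.27 ± 0.673) were nearly level and clear of Cacna1c. Cacna1g (1.21 ± 0.176) was clear of Cacnb1 above it. Its lowest library (0.899) was only just above the highest of Cacna2d3 (0.897). Cacna2d3 (0.649 ± 0.147) and Cacna1d (0.478 ± 0.0508) were last and overlapped.

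As a share of the 3 beta genes per kilobase, Cacnb2 made up 68.6% ± 1.84 in sham and 28.3% ± 6.73 in TAC, and Cacnb3 10.6% ± 2.75 and 44.5% ± 6.77 (SD, n = 5). Per kilobase, Cacnb3 was above Cacnb2 in 4 of the 5 TAC libraries and below it in all 5 sham libraries. The exception was TAC replicate 1, with 38.6% for Cacnb2 and 34.3% for Cacnb3. This order depends on the merged exon lengths, 13.23 kb for Cacnb2 and 4.01 kb for Cacnb3. In counts Cacnb3 was below Cacnb2 in every library, with a ratio of at most 0.754 in TAC. The summed beta level was 10.1 ± 1.46 CPM per kb in sham and 11.97 ± 1.71 in TAC, with overlapping libraries.

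The 3 alpha2delta genes summed to 21.7 ± 2.11 CPM per kb in sham and 22.1 ± 2.01 in TAC. Within that sum the mean share of Cacna2d3 was 13.97% ± 1.06 in sham and 2.94% ± 0.549 in TAC, and that of Cacna2d2 26.4% ± 3.96 and 44.3% ± 6.37. The 4 pore genes summed to 32.3 ± 5.86 CPM per kb in sham and 15.7 ± 1.89 in TAC. Cacna1h made up 75.2% ± 5.69 of that sum in sham and 55.7% ± 6.22 in TAC, and Cacna1c 17.6% ± 5.14 and 33.5% ± 5.93. These shares and sums are descriptions and were not tested.

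**Figure D4:**
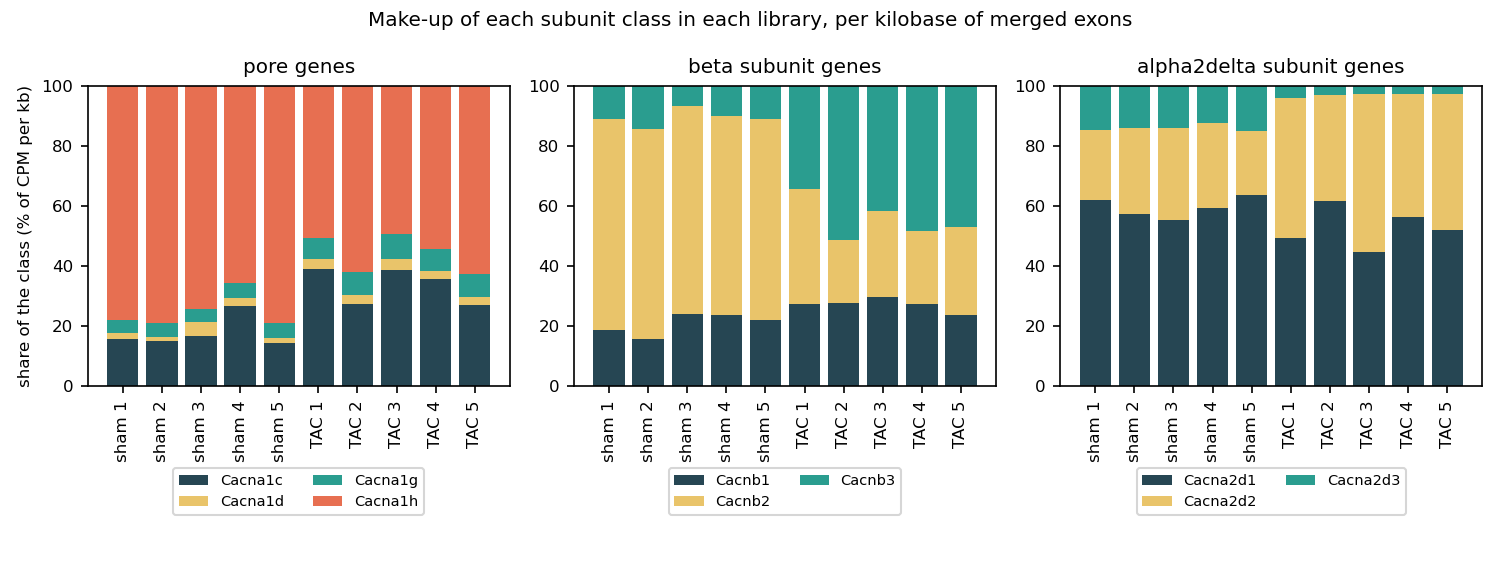
Stacked bars of each gene's share (y axis, percent of the class's CPM per kilobase) among the pore, beta and alpha2delta genes, 1 bar per library (x axis). Cacnb3 takes 6.60% to 14.3% of the beta class in the sham libraries and 34.3% to 51.5% in the TAC libraries.

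Among 16 other voltage-gated calcium channel genes, 4 passed the filter and all 4 were called (56.8% of all tested genes were). Cacnb4, another beta subunit gene, rose from 1.42 ± 0.284 to 2.80 ± 0.550 CPM (adjusted p = 0.0013), and Cacng7, a gamma subunit gene, from 2.94 ± 0.878 to 4.46 ± 1.06 CPM (adjusted p = 0.040). Cacna1s, the pore gene of the skeletal muscle L-type channel, fell from 4.35 ± 1.0 to 0.635 ± 0.330 CPM (adjusted p = 5.0e-05). Cacna1a, the pore gene of the neuronal P/Q-type channel, fell from 3.93 ± 0.459 to 2.52 ± 0.548 CPM (adjusted p = 0.0089). The Cacng7 call was lost in 8 of 21 alternatives, and the Cacna1a call when scaled by library size alone (adjusted p = 0.18). The other 12 genes, among them Cacna1b, Cacna1e and Cacna1i, were under the filter.

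Of 33 genes for regulators and partners of the L-type channel, 31 were tested. Of these, 6 were called higher and 16 lower, against 28.9% and 27.9% of all tested genes. Their median log2 fold change was -0.395, beside 0.01 for all genes. Camk2a, a calcium-calmodulin kinase gene, fell from 91.5 ± 9.14 to 20.9 ± 4.82 CPM. Pde4b, which encodes a cyclic AMP phosphodiesterase, fell from 143.4 ± 37.6 to 49.3 ± 5.05 CPM, and Akap7, which encodes an anchor of protein kinase A, from 31.7 ± 1.81 to 16.8 ± 1.76 CPM. Prkar1a, a regulatory subunit gene of protein kinase A, rose from 551.6 ± 33.8 to 1147 ± 133 CPM. Sri, which encodes the calcium-binding protein sorcin, rose from 36.3 ± 4.11 to 57.6 ± 4.31 CPM (SD, n = 5).

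Of 17 genes for calcium release and removal, all tested, 2 were called higher and 10 lower (median log2 fold change -0.72). The shares over all tested genes were 28.9% higher and 27.9% lower. The plasma membrane calcium pump gene Atp2b4 fell from 97.8 ± 13.3 to 38.1 ± 4.32 CPM, the sarcoplasmic reticulum pump gene Atp2a2 fell by 1.98 (SE 0.16) and its inhibitor gene Pln by 2.43 (SE 0.20) on the log2 scale. Fkbp1b, whose product binds the ryanodine receptor, rose from 1.16 ± 0.396 to 6.79 ± 1.6 CPM, and the skeletal calsequestrin gene Casq1 from 5.83 ± 3.19 to 17.4 ± 5.62 CPM (SD, n = 5).

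Of 19 candidate transcriptional regulators 18 were tested, with 2 called higher and 9 lower (median log2 fold change -0.23). Over all tested genes 56.8% were called, 28.9% higher and 27.9% lower. Egr1, an immediate early factor gene, fell from 256.5 ± 180 to 41.3 ± 7.61 CPM, while Tbx5 fell by 0.81 (SE 0.08) and Mef2d by 0.68 (SE 0.08) on the log2 scale. The repressor gene Rest rose by 0.41 (SE 0.09, adjusted p = 0.0024), and the nodal factor gene Shox2 by 0.51 (SE 0.19, adjusted p = 0.037), a call lost in 11 of 21 alternatives. Etv1, the ETS factor gene in the study's title, was chosen after its values were seen and fell from 21.7 ± 3.74 to 13.6 ± 1.82 CPM (adjusted p = 0.0010).

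Markers of several cell types also differed between the groups. Of 10 cardiomyocyte markers 8 were called lower and 1 higher (27.9% and 28.9% of all tested genes), and their sum in TAC was 0.509 times that in sham. Myh6 alone had a mean of 33660 of the 72102 CPM in sham and 12000 of the 36677 CPM in TAC. Mybpc3 was the marker called higher, and Myom1 was not called. Myh6 was the largest single part of the sum in both groups, and a scale set by this sum is not a level per cardiomyocyte. Per 1000 reads of these markers, Cacna1c was 1.33 to 1.99 in sham and 2.43 to 3.49 in TAC, and Cacnb3 0.0445 to 0.0860 and 0.336 to 0.858, neither overlapping between groups. On the same scale Cacna2d3 was 0.308 to 0.426 in sham and 0.138 to 0.179 in TAC. Cacnb2 (0.910 to 1.54 in sham and 1.07 to 1.36 in TAC) and Cacna1h (2.25 to 4.17 and 1.45 to 3.12) overlapped between groups on this scale. Cacnb1, Cacna2d1 and Cacna2d2 were also higher in TAC without overlap (differences of mean log2 values 0.89 for Cacna1c, 1.62 for Cacnb1, 0.83 for Cacna2d1 and 1.75 for Cacna2d2). Cacna1d, which was called lower in CPM, had a log2 difference of 0.42 on this scale and Cacna1g 0.64, both with overlapping groups. Of the 10 genes, only Cacna2d3 was lower without overlap on this scale. Because the sum in TAC was 0.509 times that in sham, a gene with equal CPM in both groups is higher in TAC on this scale. The share of all tested genes that did not overlap on it was not computed, so these separations have no background. Cacnb3 and Cacna2d3 were separate between groups in the same direction on both scales.

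Fibroblast markers summed to 2190 to 2877 CPM in sham and 5967 to 13800 in TAC, with 6 of 9 called higher and 1 lower, and all 7 macrophage markers were called higher (179.8 to 306.5 CPM in sham and 366.7 to 688 in TAC). TAC replicate 2 had the most Cacnb3 and the most fibroblast marker RNA of all libraries, and TAC replicate 1 had the least of both among TAC libraries. The same held for the macrophage sum and the smooth muscle sum (488.1 CPM in TAC replicate 2 and 265.2 in TAC replicate 1). Sums of other lists, such as pericyte (789.8 CPM) and skeletal muscle markers (481.4 CPM), were instead highest in TAC replicate 1. Among TAC libraries the cardiomyocyte sum was also highest in replicate 1 (43660 CPM) and was lowest in replicate 5 (32430 CPM). Pericyte markers were called higher for 4 of 6 genes and lower for 1, and smooth muscle markers for 3 of 7 and 1. In the neuron list Uchl1, Tubb3 and Stmn2 were called higher. Prph was not called, with a mean of 1.80 CPM in sham and 0.347 in TAC (adjusted p = 0.071 from edgeR). Snap25, Th and Elavl4 were under the filter and Chat was at 0 in all libraries. The neuron sums were 5.88 to 12.7 CPM in sham and 33.4 to 64.1 in TAC, where Uchl1 had a mean of 34.7 of 42.7 CPM. In the skeletal muscle list Acta1, Tnnt3 and Tnni2 were called higher and Cacna1s lower, while Myh1, Myh2 and Myh4 were under the filter and Myod1 was at 0 in all libraries (sums of 11.7 to 25.6 and 123.7 to 481.4 CPM). Of the other lists, 3 of 4 tested Schwann cell markers were called lower, 1 of 4 adipocyte markers higher and 3 lower, 4 of 7 endothelial markers higher and 1 lower, 5 of 5 erythroid markers higher, and 2 of 5 ventricular markers higher and 1 lower. These counts stand beside 28.9% called higher and 27.9% called lower over all tested genes. The part of these cell types in the calcium channel results was not tested.

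For each pore gene, the genes with the most similar pattern were taken by the root mean square difference of mean-centred log2 CPM over the 10 libraries, among 11562 genes. They were Phip, Ikzf2 and Zfp280d for Cacna1c (0.116 to 0.127, against a median of 0.336 over all genes), and Asic1, Hipk2 and Peli3 for Cacna1d (0.130 to 0.171, median 0.488). For Cacna1g they were Xbp1, Champ1 and Ddx17 (0.113 to 0.136, median 0.395), and for Cacna1h they were Peg13, Atp2b4 and Vit (0.233 to 0.262, median 0.821). Centring over both groups keeps the difference between them in the pattern, so genes with a like fold change come out as similar. Peg13, Atp2b4 and Vit had log2 fold changes of -1.45, -1.36 and -1.48, beside -1.48 for Cacna1h. These likenesses describe the 10 libraries and were not tested.

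**Figure D5:**
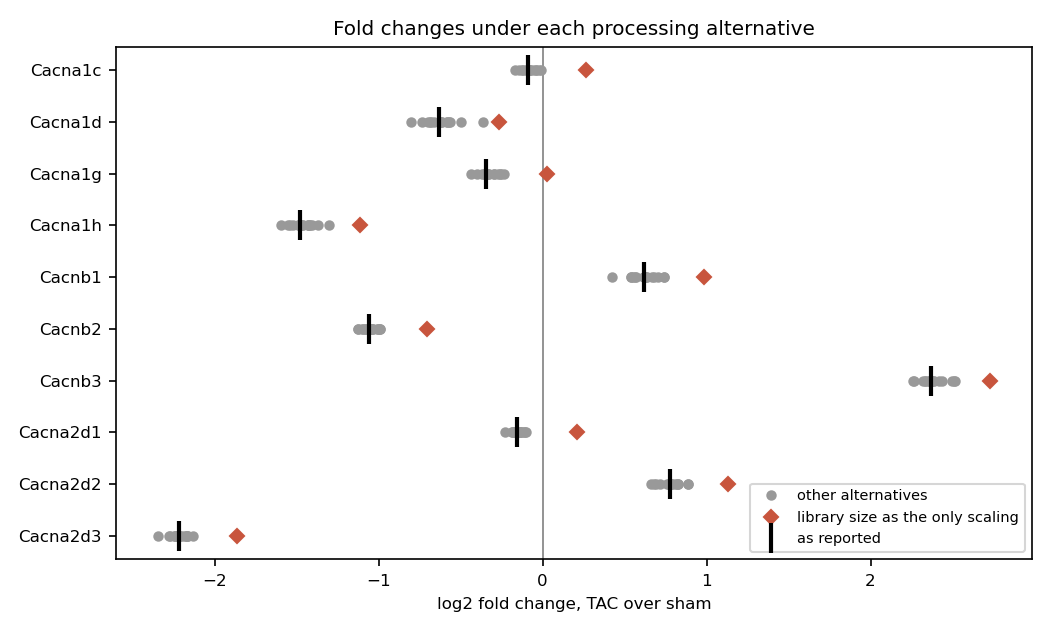
Log2 fold changes (x axis, TAC over sham) of the 10 genes (y axis) as reported and under 21 processing alternatives, with library size as the only scaling marked separately. That scaling moves all 10 genes upward and takes Cacna1c, Cacna1g and Cacna2d1 across 0.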

How the data were processed

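The authors deposited raw counts for each gene symbol, with no normalization, in a separate table for every library. The submitters' processing notes name STAR, bcl2fastq and the build mm10, with no version. Neither the counter nor its strand setting or annotation is given in the sources used here, so reads of a gene and an antisense neighbour cannot be told apart. RNA and library kits differ between the design text (RNeasy, TruSeq) and the labels (RNeasy Plus, Nugen Trio). The 5 tallies closing each table, 25.9% to 29.1% of its total, stayed out of library sizes and tests.

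Tests used edgeR 4.0.16 (quasi-likelihood F test, TMM, filterByExpr, robust, group as the only term) in R 4.3.3 over all genes. The SE is the fold change divided by the square root of F. Ratios had 0.5 added to each count and exact permutation tests. Alternatives included DESeq2 1.42.0, limma 3.58.1 voom, other scalings and filters, and each library left out. The edgeR test was checked on simulated counts in which far fewer genes changed than were called here. That check does not cover the choice of scaling. The members, lists, ratios and alternatives were chosen with earlier results of these data known.

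Named genes were all members, up to 3 called genes per direction of each list by adjusted p, and the 3 most similar genes per pore gene with a mean log2 CPM (prior count 2) of at least 1, predicted genes passed over. A gene that this rule names is not reported here. The 20 pairs of libraries within groups differed by more than sampling noise (chi-square per degree of freedom 20.4 to 184). Coordinates come from GENCODE M21 (GRCm38, also called mm10), in which 95.8% of symbols matched a single gene.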

Additional observations from a re-analysis of the deposited data

Results flagged for a closer look

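A library was singled out where its gap to the nearest other of its group exceeded 0.71 of the group's range (Dixon's criterion). Of 72 groups of values examined 4 had such a library, and chance alone gives about 5%. Sham replicate 3 was far above the other sham libraries for Cacna1d (15.6 CPM, gap 0.775 of the range) and for the log2 ratio of Cacna1d to Cacna1c (-2.57, gap 0.760). TAC replicate 1 was lowest for Cacna1g (9.11 CPM, gap 0.784). The highest sham library for Egr1, replicate 2, reached 575 CPM (gap 0.824).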

How the results depend on the processing

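Over the 10 members and 21 alternatives, 202 of 210 values kept their direction and their side of the threshold, and 6 to 8 members were called in each (2 to 4 higher, 3 to 5 lower). With library size as the only scaling, 7741 genes were called higher and 1929 lower, against 4383 and 4233, a share of 80.1% higher in place of 50.9%. Under that scaling Cacna1c (0.27), Cacna1g (0.024) and Cacna2d1 (0.21) changed sign. The other changed calls, of Cacna1d, Cacna1g and Cacnb1, are given with each gene. Leaving out single libraries gave -0.59 to -0.19 for the log2 ratio of Cacna1d to Cacna1c. The value nearest 0 came without sham replicate 3, the library that stood apart (-0.19, exact permutation p = 0.18). The ratio passed the threshold without sham replicate 2 (-0.59, exact permutation p = 0.040) or sham replicate 4 (-0.58, exact permutation p = 0.048). These p-values were not adjusted over the 6 ratios. Depth limits Cacnb3 in sham, with 62 to 172 counts.

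Libraries with the same replicate number did not deviate together (correlations -0.036 to 0.080, 1 of 5 sham libraries closest to its own number), so the numbers were not taken as pairs. With the replicate block in edgeR, 4103 genes were called higher, 3917 lower, and 7 members. For the ratios the replicate block was a sign-flip test whose smallest exact p is 0.0625, so it cannot pass: the log2 differences were -1.13 (Cacna1h to Cacna1g), 1.70 (Cacnb1 to Cacnb2), 3.41 (Cacnb3 to Cacnb2), 0.93 (Cacna2d2 to Cacna2d1) and -2.08 (Cacna2d3 to Cacna2d1).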

Other observations

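The following calcium channel genes were under the filter on low counts and were chosen here after their values were seen. Cacng8 had 24 counts in the TAC libraries together and 0 in all 5 sham libraries. If only sampling noise is counted, a total of 0 allows up to 3 expected counts over the 5 sham libraries together. Cacna1e had 89 counts in sham and 36 in TAC, with 5 to 25 in each library. Of the 46 Cacng6 counts in sham, 40 came from a single library.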
